A study of Mus musculus with 24 samples.

Results

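The transcripts of 10 NF-kB genes were followed through the activation of mouse CD4+ T cells: the subunits Nfkb1, Nfkb2, Rel, Rela and Relb, and the inhibitors Nfkbia, Nfkbib, Nfkbie, Nfkbid and Nfkbiz. They were taken from the table of raw read counts by matching its Ensembl identifiers to these symbols, which found 10 of 10 members among the 54446 genes of the table. CD4+ T cells from the spleen of WT mice (1, 3 and 4) and Aim2-/- mice (1, 2 and 4), both on a C57BL6 background, were sampled at 0, 3, 6 and 24 h of stimulation through CD3 (plate-bound antibody) and CD28 (soluble antibody), which stands in for antigen and costimulation. Each of the 6 mice gave a library at each of the 4 times, 24 libraries in all, with 3 libraries in each of the 8 groups. The Aim2-/- mice are deficient in AIM2 as whole animals, so that the deficiency was not limited to T cells. The cells were enriched by removing other cell types with antibodies and magnetic beads, without a sort. Ages were not given in the labels.

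NF-kB is a family of dimeric transcription factors. The products of Rel (c-Rel), Rela (p65) and Relb activate transcription directly, whereas Nfkb1 and Nfkb2 encode the long precursors p105 and p100, which hold other subunits in the cytoplasm until they are cut to p50 and p52. The classical inhibitors IkB-alpha (Nfkbia), IkB-beta (Nfkbib) and IkB-epsilon (Nfkbie) keep dimers out of the nucleus and are degraded after T cell receptor signalling activates the IkB kinase, and Nfkbia and Nfkbie are themselves textbook NF-kB targets. The nuclear proteins IkB-NS (Nfkbid) and IkB-zeta (Nfkbiz) bind NF-kB on DNA and modulate the transcription of selected targets. In T cells c-Rel is known above all for its part in Il2 transcription and in the development of regulatory T cells.

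Total counts ran from 19715161 to 21627018 per library. The cells carried the transcripts of their labelled type: the summed level of 8 CD4+ T cell markers was 3537 to 5298 CPM (counts scaled to a common library total) in all 24 libraries, while of 2 CD8 markers Cd8a was at a median of 0.442 CPM and Cd8b1 at 10.1 CPM (7.30 to 13.7). The gene named in the genotype was checked first. Aim2 stood at 50.6 to 75.0 CPM in mice WT 3 and WT 4 at 0 and 3 h and at 32.5 to 38.6 CPM at 6 and 24 h, and in the 3 Aim2-/- mice at 14.6 to 20.1 CPM at 0 and 3 h and 5.28 to 11.4 CPM at 6 and 24 h. The 4 libraries of the mouse labelled WT 1 held 21.5, 17.0, 11.5 and 5.57 CPM at 0, 3, 6 and 24 h, within or slightly above the range of the Aim2-/- mice and below both other WT mice at every time. For comparisons of WT libraries in the main fit, calls of members that change without the mouse labelled WT 1 are therefore given below. The fits with mouse as a replicate block were not run without it, and the calls of pathway and target genes are given only with it. Markers of several other cell types were higher in the Aim2-/- libraries: at 6 h the summed level of 11 myeloid markers was 25.5 to 49.2 CPM in WT and 62.1 to 228 CPM in Aim2-/- libraries, that of 10 B cell markers 8.81 to 13.9 and 19.2 to 54.0 CPM, that of 4 NK cell markers 61.6 to 72.1 and 96.8 to 108 CPM, and that of 5 basophil and mast cell markers 9.20 to 16.5 and 70.6 to 145 CPM. The sum of 6 erythroid markers overlapped, at 8.08 to 64.9 and 23.2 to 498 CPM. Of the defining markers, Pax5 and Adgre1 were at 0 in 3 libraries each. The sources do not say how mice were assigned to cultures or sequencing runs. In these bulk samples, fewer cells of a type and less RNA per cell cannot be told apart, and a level in CPM is a share of the RNA of a library, not an amount per cell.

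RefSeq gives promoter windows (GRCm38.p6, 250 bases before to 50 bases after a transcript start) for 7 of the 10 members, in 11 windows, and none was found for Nfkb1, Relb and Nfkbiz. The 10-letter kappaB consensus, the DNA letters that NF-kB dimers bind, was searched on both strands, where a palindromic stretch can match on each. It occurred in at least 1 window of 5 of the 7 members (Nfkb2, Rel, Nfkbia, Nfkbie and Nfkbid) and in 7 of the 11 windows, against 4.51% of all 32851 windows of the same length and 5.14% of 27025 symbols. A match is a description of the letters and not a bound site. Upstream sequences are shown for 4 members, chosen with their values known. Rel and Nfkbia differed between genotypes at 6 h, Nfkbib was the member that was higher at 24 h in WT cells, and Nfkbid had a wide spread at 3 h. The part of the upstream letters in these values was not tested. The Rel sequence is chr11:23770970-23771219 on the minus strand, that of Nfkbia chr12:55492648-55492897 on the minus strand, that of Nfkbib chr7:28766645-28766894 on the minus strand, and that of Nfkbid chr7:30422156-30422405 on the plus strand, before the middle of its 3 annotated starts. Each is printed 5′ to 3′ with its last base next to the transcript start, and capitals mark the consensus letters.
Rel: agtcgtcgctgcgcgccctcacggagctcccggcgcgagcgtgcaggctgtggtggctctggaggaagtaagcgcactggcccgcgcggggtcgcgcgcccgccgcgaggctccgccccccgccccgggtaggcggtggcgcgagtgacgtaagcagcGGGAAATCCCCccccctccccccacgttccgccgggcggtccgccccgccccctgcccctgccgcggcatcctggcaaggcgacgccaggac
Nfkbia: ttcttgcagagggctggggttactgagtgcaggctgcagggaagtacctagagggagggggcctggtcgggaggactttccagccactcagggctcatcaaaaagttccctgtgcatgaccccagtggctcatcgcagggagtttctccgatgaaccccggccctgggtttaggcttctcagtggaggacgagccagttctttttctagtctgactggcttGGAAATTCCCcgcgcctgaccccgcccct
Nfkbid: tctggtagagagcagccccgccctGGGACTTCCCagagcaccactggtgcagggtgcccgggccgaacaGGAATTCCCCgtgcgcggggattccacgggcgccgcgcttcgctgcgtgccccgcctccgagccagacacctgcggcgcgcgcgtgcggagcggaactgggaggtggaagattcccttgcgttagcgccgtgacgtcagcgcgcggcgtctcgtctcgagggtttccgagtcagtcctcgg
Nfkbib: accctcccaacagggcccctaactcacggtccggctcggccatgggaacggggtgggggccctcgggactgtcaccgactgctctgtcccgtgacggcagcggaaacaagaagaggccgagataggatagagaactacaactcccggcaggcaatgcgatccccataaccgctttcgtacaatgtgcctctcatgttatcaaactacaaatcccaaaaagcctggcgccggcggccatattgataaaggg
The Nfkbib window holds no consensus letters, and neither do the Nfkbid windows at chr7:30421481-30421780 and chr7:30423025-30423324, which are not printed. Besides the matches printed below, Nfkb2 had others at chr19:46304726-46304735 and chr19:46305459-46305468. Its second printed match lies in overlapping windows and was found in each of them. In Nfkb2 and Nfkbie, a pair of matches and 1 match with 10 bases on either side read as follows, at chr19:46304688-46304717, chr19:46305695-46305724 and chr17:45555584-45555613, all on the plus strand.
Nfkb2 first: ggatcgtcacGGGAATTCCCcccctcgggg
Nfkb2 second: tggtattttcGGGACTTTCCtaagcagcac
Nfkbie: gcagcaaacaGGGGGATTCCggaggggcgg

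Before stimulation all 10 members were expressed. Only levels per length compare genes, and in TPM over the merged exons of each gene (counts per length, scaled to a common total; mean ± SD over 6 mice) Nfkbia led with 1383 ± 115 (n = 6), followed by Nfkbid at 652 ± 16.7. The subunits Nfkb2 (431 ± 25.1) and Rela (425 ± 14.2) did not differ beyond their spread. Nfkb1 (330 ± 18.4), Relb (269 ± 18.5) and Rel (202 ± 25.8) came next. The inhibitors Nfkbib (171 ± 9.24), Nfkbiz (133 ± 16.0) and Nfkbie (121 ± 17.0) closed the order. From Relb downwards the ranges over mice of neighbours in this order overlapped. The place of Nfkb1 depends on the length used: its merged exons span 12061 bases and its longest transcript 4149, and over the longest transcript it stood at 743 ± 39.8 TPM, second after Nfkbia. At 24 h Nfkbia was still first over merged exons, at 421 ± 53.2 TPM, and Nfkbiz was last, at 25.3 ± 6.43 TPM.

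**Figure D1:**
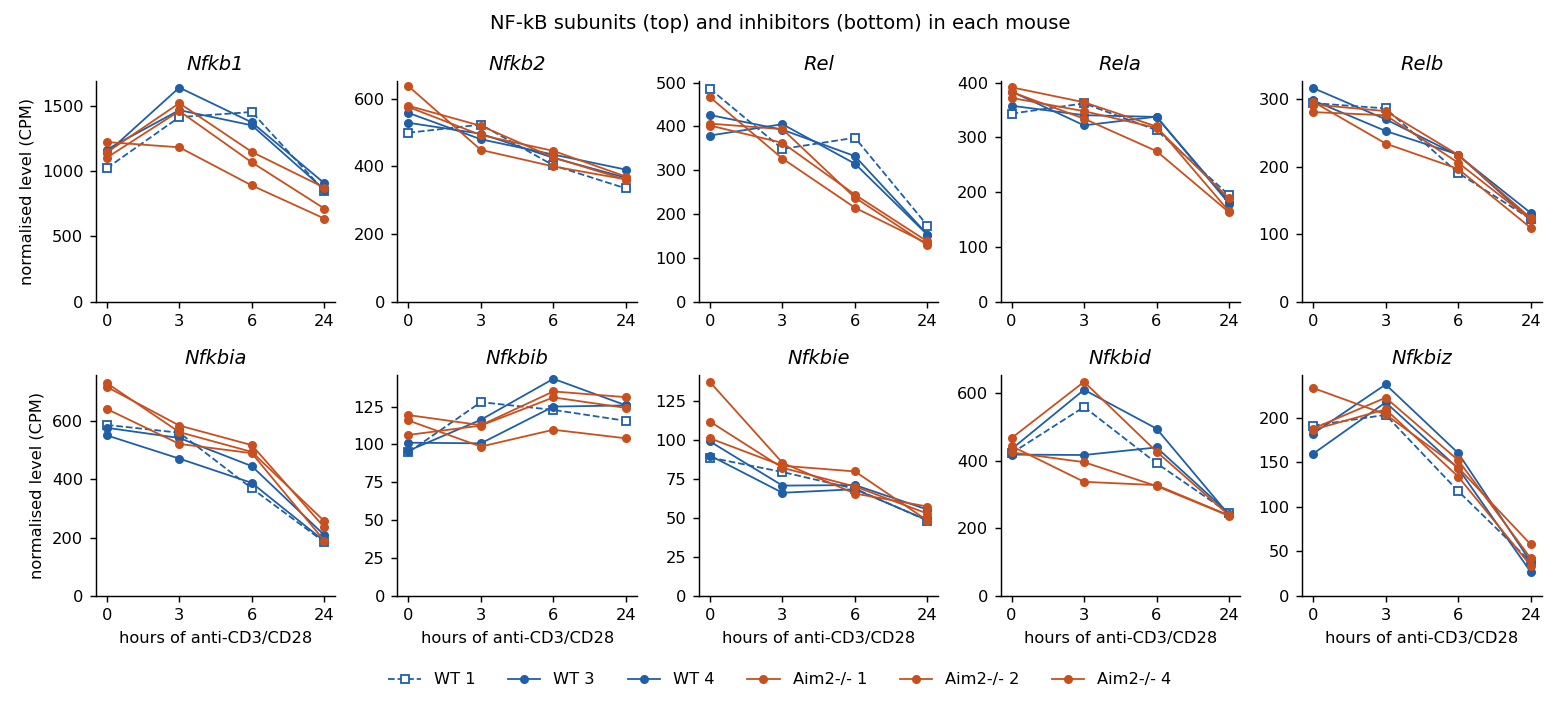
Normalised level (CPM, linear axes from 0) of each of the 10 members at 0, 3, 6 and 24 h, with 1 line per mouse (blue, WT; orange, Aim2-/-; dashed with open squares, the mouse labelled WT 1). Nfkb1 rises at 3 h in 5 of 6 mice, Nfkbib stays between 94.7 and 143 CPM, and the other members, Nfkb1 included, are lowest at 24 h; at 6 h the Rel lines of the genotypes are apart.

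The first question was how stimulation moved the family. At 3 h few members had changed. Nfkb1 was at 1022, 1137 and 1164 CPM at 0 h and 1413, 1639 and 1466 CPM at 3 h in WT 1, WT 3 and WT 4, without overlap. In WT cells Nfkb1 rose by 0.44 on the log2 scale (SE 0.117, 95% interval 0.20 to 0.69, adjusted p = 0.00571) and Nfkbie was lower by a log2 change of -0.36 (SE 0.102, adjusted p = 0.00919), so 2 of 10 members passed, against 32.6% of all genes. In Aim2-/- cells Nfkb2 (log2 change -0.29, adjusted p = 0.00623), Nfkbia (-0.32, adjusted p = 0.0193) and Nfkbie (-0.48, adjusted p = 0.00114) fell, 3 of 10 against 30.7%. Without the mouse labelled WT 1 the change of Nfkb1 in WT cells was 0.43 and missed the threshold (adjusted p = 0.051), which left 1 member, and with mouse as a replicate block 5 members passed in Aim2-/- cells (41.2% of all genes in that fit), Nfkb1 (0.25, adjusted p = 0.0350) and Rel (-0.24, adjusted p = 0.0490) joining the others. In WT cells the block added Nfkbib (0.24, adjusted p = 0.0312; 42.7% of all genes). Without Aim2-/- 1, Nfkb1 passed in Aim2-/- cells (0.41, adjusted p = 0.00964) and Nfkb2 (-0.19, adjusted p = 0.122) and Nfkbia (-0.30, adjusted p = 0.0837) did not. The split by direction depended on the scaling: with library totals alone the median change of all genes was 0.12 in WT and 0.13 in Aim2-/- cells in place of 0.02 in both, and the calls became 3 higher and 0 lower in WT cells and 1 higher and 1 lower in Aim2-/- cells.

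By 6 h the subunits had parted. In WT cells Nfkb1 remained above its 0 h level (log2 change 0.33, SE 0.117, adjusted p = 0.0233) and Nfkbib, the IkB-beta gene, rose by 0.42 (SE 0.102, adjusted p = 0.00152). Relb, whose protein pairs mainly with p52, fell (log2 change -0.54, SE 0.0813, adjusted p = 9.98e-06), as did Nfkbia (-0.51), Nfkbie (-0.42), Rel (-0.34) and Nfkb2 (-0.33). Rela, Nfkbid and Nfkbiz did not pass, with changes of -0.13, 0.06 and -0.34. In Aim2-/- cells 7 members fell and none rose: Rel (-0.87, SE 0.102, adjusted p = 4.83e-07), Nfkbie (-0.70), Nfkbiz (-0.50), Nfkb2 (-0.49), Relb (-0.49), Nfkbia (-0.48) and Rela (-0.33). The counts of 7 of 10 in each genotype stood against 51.1% of all genes in WT and 51.2% in Aim2-/- cells. Without the mouse labelled WT 1, Nfkb1 in WT cells was at 0.24 (adjusted p = 0.216), and the other 6 calls of the WT comparison held. With mouse as a replicate block Nfkbiz passed in WT cells (-0.34, adjusted p = 0.0247; 59.2% of all genes) and Nfkbid in Aim2-/- cells (-0.32, adjusted p = 0.0376; 59.9%). With each library corrected for its trend with the GC content and length of transcripts, the WT change of Rel was -0.07 (adjusted p = 0.593), and in Aim2-/- cells Nfkbiz missed the threshold (-0.38, adjusted p = 0.0688) and Nfkbid passed (-0.43, adjusted p = 0.0277). With library totals alone the WT count was again 7, and in Aim2-/- cells 1 member was called higher, Nfkbib at 0.25 (adjusted p = 0.0278), and 6 lower.

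At 24 h the decline was general. In WT cells 10 of 10 members passed, 9 lower and 1 higher, against 71.4% of all genes tested; in Aim2-/- cells 9 passed, all lower, against 70.3%. The median log2 change of the 10 members was -0.92 in WT and -1.15 in Aim2-/- cells, beside -0.01 and 0.03 over all 15325 genes tested. The same 9 members fell in both genotypes, which share no library, and without the mouse labelled WT 1 the WT count was 10 again. With the GC and length correction it was 8, Nfkb1 (-0.23, adjusted p = 0.0688) and Nfkbib (0.17, adjusted p = 0.115) missing the threshold. Several marker genes fell over the same time. In WT cells 7 of 8 CD4+ T cell markers (median log2 change -0.46), 3 of 4 NK cell markers (-1.39) and 4 of 10 myeloid markers tested (-2.82) fell. In Aim2-/- cells these were 7 of 8 (-0.45), 3 of 4 (-1.75) and 3 of 10 (-1.19). Of all genes, 34.8% fell in WT and 33.5% in Aim2-/- cells. Of 9 B cell markers tested 3 fell in each genotype, and 1 rose in Aim2-/- cells. Of 5 basophil and mast cell markers 1 rose in WT and 3 in Aim2-/- cells, and of 2 CD8 markers 0 and 2. Of 6 erythroid markers 0 were called. The part of these marker changes in the members' changes was not tested.

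Nfkbiz, the IkB-zeta gene, had the deepest fall. Its level was 191, 159 and 182 CPM at 0 h, 203, 217 and 237 CPM at 3 h, 117, 143 and 160 CPM at 6 h and 38.1, 26.8 and 38.1 CPM at 24 h in the mice WT 1, WT 3 and WT 4. In Aim2-/- mice 1, 2 and 4 it was 233, 186 and 188 CPM at 0 h and 57.6, 33.8 and 42.0 CPM at 24 h. In both genotypes every 24 h library lay below every 0 h library. The log2 change at 24 h was -2.37 in WT (SE 0.168, adjusted p = 5.81e-11) and -2.18 in Aim2-/- cells (SE 0.166, adjusted p = 2.26e-10), and most of it came after 6 h, with steps from 6 to 24 h of -2.03 and -1.69.

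Nfkbia, which encodes the inhibitor that is degraded and resynthesised in each round of signalling, was lower than at 0 h in 6 of 6 mice at each later time. It stood at 588, 552 and 578 CPM at 0 h and at 185, 188 and 209 CPM at 24 h in WT 1, WT 3 and WT 4. In Aim2-/- 1, 2 and 4 it stood at 732, 643 and 719 CPM at 0 h and at 257, 189 and 235 CPM at 24 h. The 0 h and 24 h libraries did not overlap in either genotype, and the log2 changes at 24 h were -1.56 (SE 0.104, adjusted p = 2.41e-11) and -1.62 (SE 0.105, adjusted p = 2.01e-11). Nfkbie fell by less, with log2 changes of -0.87 and -1.15, from 88.9 to 137 CPM over the 6 mice at 0 h to 48.3 to 57.4 CPM at 24 h. Nfkbid had a wide spread early, 338 to 634 CPM over the 6 mice at 3 h, and came together at 24 h at 237 to 245 CPM, with log2 changes from 0 h of -0.81 and -0.91.

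Nfkbib was the exception among the 10. It was at 94.7, 95.8 and 101 CPM at 0 h and at 116, 126 and 126 CPM at 24 h in WT 1, WT 3 and WT 4. All 3 WT mice were higher at 24 h than any of them at 0 h, and the log2 change was 0.33 (SE 0.102, adjusted p = 0.00659), or 0.17 (adjusted p = 0.115) with the GC and length correction. In Aim2-/- 1, 2 and 4 it was at 116, 106 and 119 CPM at 0 h and at 104, 124 and 131 CPM at 24 h, which overlapped, with a log2 change of 0.07 (95% interval -0.14 to 0.29, adjusted p = 0.53), or -0.11 (adjusted p = 0.326) with the correction. The difference between the genotypes in this change did not pass (log2 difference -0.26, adjusted p = 0.489). In the annotation, 314 exon bases of Nfkbib lie opposite Ccer2 and 42 opposite Sirt2, and 531 and 299 exon bases of Nfkb2 opposite AC114539.1 and Psd; the strand setting of the counting was not given in the sources used here, so reads of these pairs may not be told apart.

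**Figure D2:**
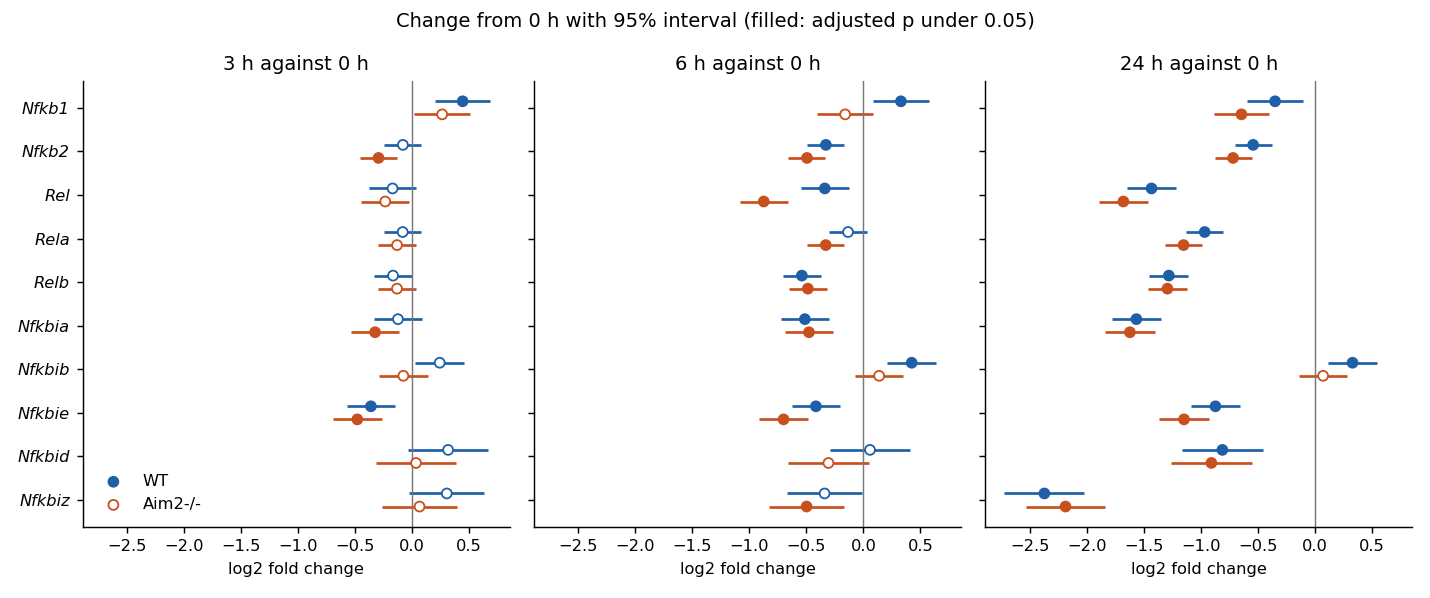
Log2 fold change from 0 h with its 95% interval for each member at 3, 6 and 24 h (blue, WT; orange, Aim2-/-; filled points, adjusted p under 0.05). At 24 h the 9 members other than Nfkbib lie left of 0 in both genotypes, from -0.35 for Nfkb1 to -2.37 for Nfkbiz in WT cells.

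Among the activating subunits Rel had the lowest log2 change at 24 h, an order that turned with the GC and length correction. Rel was at 486, 379 and 426 CPM at 0 h and at 173, 152 and 153 CPM at 24 h in WT 1, WT 3 and WT 4. In Aim2-/- 1, 2 and 4 the levels were 467, 402 and 406 CPM and then 132, 137 and 129 CPM. The log2 changes were -1.43 in WT (SE 0.103, adjusted p = 7.47e-11) and -1.68 in Aim2-/- cells (SE 0.104, adjusted p = 1.08e-11). Those of Relb were -1.28 and -1.29 and those of Rela -0.96 and -1.15. With the correction Rel was at -0.90 in WT and -1.15 in Aim2-/- cells, Rela at -1.06 and -1.25, and Relb at -1.25 and -1.26, so that Rel then fell least of the 3. The precursor genes Nfkb2 (-0.54 and -0.72) and Nfkb1 (-0.35 and -0.64) had the smallest changes of the 5 subunits.

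After 3 h every member change called in a single step was downwards. From 3 to 6 h, 4 members fell in WT cells (Nfkb2, Relb, Nfkbia and Nfkbiz; 25.7% of all genes were called) and 4 in Aim2-/- cells (Nfkb1, Rel, Relb and Nfkbiz; 23.3%), where the replicate block added Nfkb2 and Rela (both -0.20, adjusted p = 0.0446 and 0.0434; 35.5% of all genes in that fit). Nfkbib had log2 changes of 0.18 in WT (adjusted p = 0.215) and 0.22 in Aim2-/- cells (adjusted p = 0.139). From 6 to 24 h, all members but Nfkbib fell in each genotype, 9 of 10 against 57.6% and 54.3% of all genes. Without the mouse labelled WT 1 only Nfkbiz passed from 3 to 6 h in WT cells, while Nfkb2 was at -0.18, Relb at -0.27 and Nfkbia at -0.28 in place of -0.25, -0.37 and -0.39, and from 6 to 24 h Nfkb2 then missed the threshold (-0.19, adjusted p = 0.113).

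The proportions of the subunits, which carry no GC or length correction beyond the division by length, also changed. Shares and the ratio below are over merged exons, and their size depends on the length used. Over the longest transcript Nfkb1 was the highest subunit at 0 h, at 743 ± 39.8 TPM, followed by Nfkb2 at 398 ± 25.2. At 24 h it stood at 476 ± 66.0 TPM over that length, above Nfkbia at 326 ± 43.6. Of the summed TPM of the 5 subunits, the share of Nfkb1 was 19.9% ± 0.622 (SD, n = 6 mice) at 0 h and 26.1% ± 1.59 at 3 h, 25.8% ± 2.63 at 6 h and 26.1% ± 2.01 at 24 h. It was higher than at 0 h in 6 of 6 mice at each time (exact sign-flip permutation test, p = 0.03125, the smallest that 6 mice allow, adjusted p = 0.0469). The share of Nfkb2 dropped from 26.0% ± 1.20 to 23.5% ± 0.708 at 3 h and reached 31.2% ± 2.37 at 24 h, each in 6 of 6 mice (exact permutation p = 0.03125, adjusted p = 0.0469). The share of Rel went from 12.2% ± 1.27 to 7.67% ± 0.668 at 24 h, that of Relb from 16.2% ± 0.993 to 12.3% ± 0.531 and that of Rela from 25.7% ± 0.784 to 22.8% ± 0.924, all lower in 6 of 6 mice with the same exact permutation p. The ratio of summed inhibitor to summed subunit TPM was 1.49 ± 0.103 at 0 h, 1.45 ± 0.105 at 3 h and 1.46 ± 0.170 at 6 h, with 3 mice higher and 3 lower than at 0 h at both. At 3 h the split followed genotype over merged exons, a difference that was not tested. The ratio went from 1.47, 1.38 and 1.37 to 1.52, 1.40 and 1.41 in WT 1, WT 3 and WT 4. In Aim2-/- 1, 2 and 4 it went from 1.57, 1.49 and 1.63 to 1.49, 1.30 and 1.60. Over the longest transcript and in CPM there was no such split, as the ratio was lower at 3 h in 6 of 6 mice (exact permutation, adjusted p = 0.0375 and 0.0402). Over merged exons at 6 h the ratio was 1.22, 1.37 and 1.38 in WT 1, WT 3 and WT 4. In Aim2-/- 1, 2 and 4 it was 1.66, 1.48 and 1.64, and the genotypes were apart at 0 h too. The Nfkb1 share at 6 h was 26.8% to 29.4% over WT mice and 22.4% to 25.2% over Aim2-/- mice, overlapping at 0 h. The Rel share was 10.2% to 12.2% and 8.42% to 8.71%, also overlapping at 0 h. The other shares were apart at 6 h, higher in Aim2-/- mice. These differences were not tested. At 24 h the ratio was 1.24 ± 0.151, lower than at 0 h in 6 of 6 mice (exact permutation p = 0.03125, adjusted p = 0.0469).

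**Figure D3:**
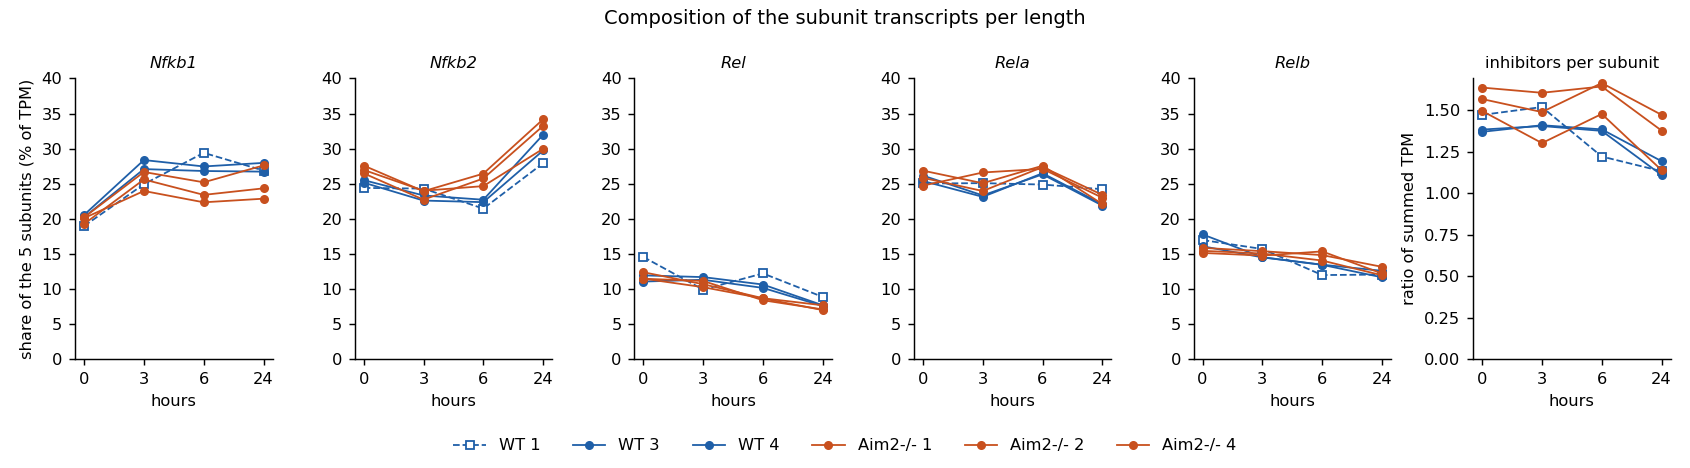
Share of each subunit in the summed TPM of the 5 subunits over merged exons (percent, axis 0 to 40) and the ratio of summed inhibitor to subunit TPM (axis from 0) at 0, 3, 6 and 24 h, 1 line per mouse. The Nfkb1 share rises from 19.9% to 26.1% at 3 h and the Rel share ends at 7.67%.

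The second question was whether Aim2-/- cells differed from WT cells. At 0, 3 and 24 h no member passed edgeR's test, while 5.23%, 0.294% and 0.666% of all genes did. An unadjusted p under 0.05 was reached by 4, 1 and 3 members, and by 3649, 2350 and 3134 of the 15325 genes tested. DESeq2 called 1, 0 and 0 members. At 0 h the lowest adjusted p was that of Nfkbie (log2 difference 0.33, 95% interval 0.12 to 0.55, adjusted p = 0.0587), at 88.9, 90.2 and 99.2 CPM in WT 1, WT 3 and WT 4 and 137, 101 and 112 CPM in Aim2-/- 1, 2 and 4.

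At 6 h, 3 of 10 members differed, against 15.8% of all genes. Rel stood at 374, 315 and 332 CPM in WT 1, WT 3 and WT 4, compared with 214, 244 and 237 CPM in Aim2-/- 1, 2 and 4. The groups did not overlap, with every Aim2-/- library below every WT library, and the log2 difference was -0.55 (SE 0.101, 95% interval -0.76 to -0.34, adjusted p = 0.00484). For Nfkb1 the WT mice held 1452, 1372 and 1350 CPM and the Aim2-/- mice 889, 1146 and 1066 CPM, again without overlap (log2 difference -0.43, SE 0.117, adjusted p = 0.0232). Nfkbia went the other way, at 369, 388 and 446 CPM in WT and 495, 491 and 518 CPM in Aim2-/- mice (log2 difference 0.32, SE 0.102, adjusted p = 0.0398). Its log2 difference at 0 h was 0.29, without overlap of the groups (edgeR, adjusted p = 0.0952). The genotypes differed by 0.04 in its change from 0 to 6 h (edgeR, adjusted p = 0.954). Rela, Relb and Nfkb2 had log2 differences of -0.12, -0.01 and 0.01, with 95% intervals within -0.28 and 0.17.

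Without the mouse labelled WT 1, the log2 difference of Rel at 6 h was -0.48 (adjusted p = 0.00943), that of Nfkb1 -0.40 (adjusted p = 0.067) and that of Nfkbia 0.26 (adjusted p = 0.143), so 1 of the 3 calls held. Without Aim2-/- 1, the mouse with the highest myeloid and erythroid marker sums, the values were -0.50 (adjusted p = 0.0399), -0.33 (adjusted p = 0.0799) and 0.33 (adjusted p = 0.0993). With B cell and myeloid marker scores as terms in the model, they were -0.52 (adjusted p = 0.0137), -0.32 (adjusted p = 0.0802) and 0.28 (adjusted p = 0.0720). Length and base composition also moved with genotype at 6 h: over 15318 genes the log2 difference had a Spearman correlation of -0.203 with transcript length and 0.148 with GC content, where genes are not independent replicates. The Rel transcript is long and poor in GC (7466 bases, 42.5%, against medians of 2998 bases and 49.6%), whereas the longest Nfkbia transcript is short (1578 bases, 52.9%). With each library corrected for its trend with both, the difference of Rel was -0.32 (adjusted p = 0.0440), that of Nfkb1 -0.32 (adjusted p = 0.0608) and that of Nfkbia 0.17 (adjusted p = 0.202). The part of NK, basophil and erythroid transcripts in these differences was not tested.

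**Figure D4:**
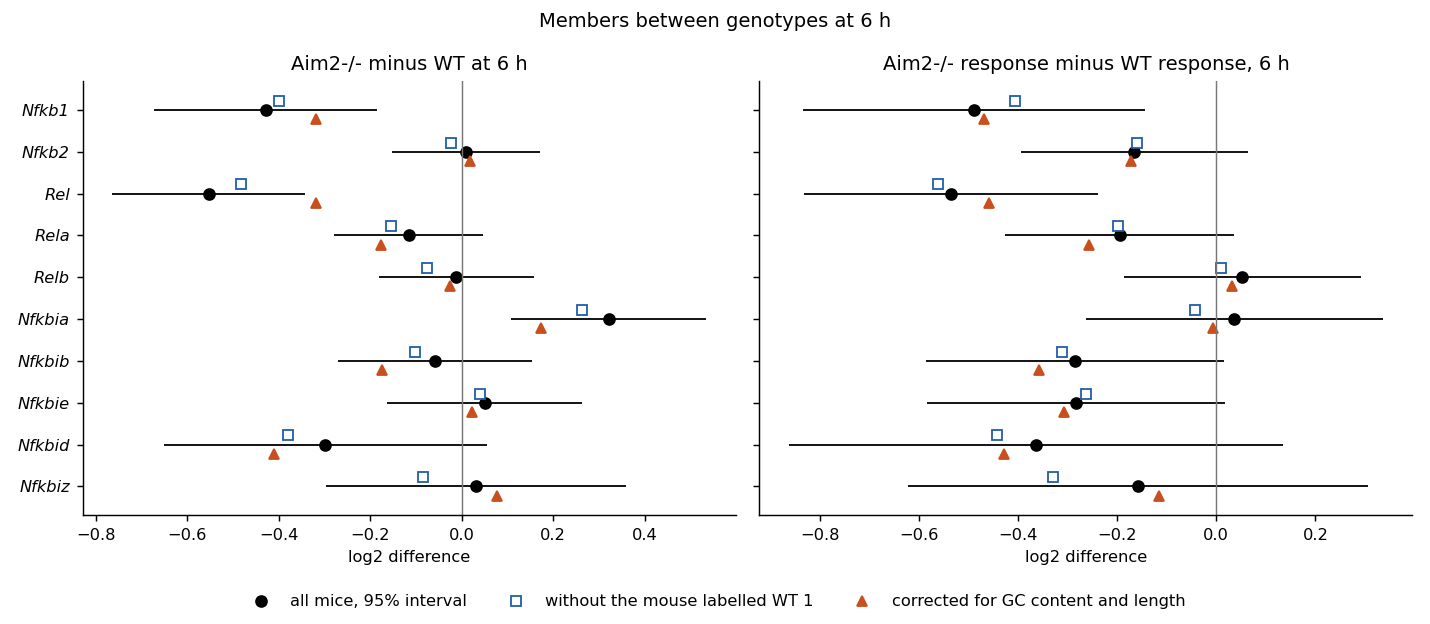
Log2 difference between Aim2-/- and WT cells at 6 h (left) and difference between the genotypes in the change from 0 to 6 h (right) for each member: black points with 95% intervals, all mice; open squares, without the mouse labelled WT 1; triangles, corrected for GC content and length. Rel and Nfkb1 lie lowest or near lowest on both sides, and the Rel triangle on the left is at -0.32 beside its point at -0.55.

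The difference between the genotypes in the response to stimulation was tested directly, as the change from 0 h in Aim2-/- minus that in WT cells. No member passed edgeR's test at 3, 6 or 24 h, with 0%, 0.0261% and 0% of all genes called. An unadjusted p under 0.05 was reached by 1, 2 and 0 members, and by 653, 2019 and 1825 of the 15325 genes tested. DESeq2 called 0, 1 and 0 members. At 6 h the change of Rel was lower by 0.54 on the log2 scale in Aim2-/- cells (log2 difference -0.54, 95% interval -0.83 to -0.24, adjusted p = 0.102) and that of Nfkb1 had a log2 difference of -0.49 (95% interval -0.83 to -0.14, adjusted p = 0.206). In the paired fit, with mouse as a replicate block, both passed at 6 h, where 4.68% of all genes did, Rel with -0.54 (adjusted p = 0.0279) and Nfkb1 with -0.51 (adjusted p = 0.0323). With the block and the GC and length correction together, where 5.61% of all genes passed, the values were -0.46 (adjusted p = 0.0307) and -0.48 (adjusted p = 0.0322), and Nfkbib passed as well (-0.36, adjusted p = 0.0472). Neither fit with the block was run without the mouse labelled WT 1.

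The pathway around the family was followed in 25 further genes, all of them tested. In WT cells 7 rose and 10 fell at 3 h, 6 rose and 14 fell at 6 h, and 3 rose and 17 fell at 24 h. In Aim2-/- cells the counts were 7 and 7, 6 and 15, and 3 and 17. Over all genes tested, 16.2%, 26.4% and 36.6% rose and 16.4%, 24.8% and 34.8% fell at these times in WT cells, and 16.1%, 28.5% and 36.8% rose and 14.6%, 22.7% and 33.5% fell in Aim2-/- cells. Between genotypes at 6 h, 2 pathway genes were higher in Aim2-/- cells, Tnfaip3 (0.38) and Otulin (0.22), and 6 lower, led by Malt1 (-0.59), with 8.78% of all genes higher and 7.01% lower. Of 8 genes between the T cell receptor and the IkB kinase, Malt1, a protease, rose at 6 h by 1.43 on the log2 scale in WT and 0.83 in Aim2-/- cells, and Prkcq, a protein kinase C gene, by 0.85 and 0.79, while Bcl10 fell to -0.98 and -0.97 at 24 h. Of 8 IkB kinase and noncanonical genes 7 fell at 24 h in each genotype, led by Birc2 (-2.20 and -1.86), a ubiquitin ligase, and Map3k14 (-2.03 and -2.10), the NF-kB-inducing kinase. Among 8 genes for feedback and linear ubiquitin, Tnfaip3, which encodes the deubiquitinase A20, fell to -1.10 and -0.99 at 3 h, -2.18 and -2.14 at 6 h and -4.67 and -4.70 at 24 h, further than any of the 10 members at each time. Otulin, a deubiquitinase of linear chains, rose to 1.04 and 1.03 at 24 h. Bcl3, a nuclear IkB-like gene, rose in WT cells at 3 h (0.65) and fell at 24 h in both (-1.02 and -0.50).

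Of 25 textbook NF-kB target genes, 14 rose and 1 fell in WT cells at 3 h, 16 rose and 2 fell at 6 h, and 14 rose and 8 fell at 24 h. In Aim2-/- cells 13 rose and 2 fell, 14 rose and 2 fell, and 14 rose and 8 fell, beside the shares of all genes given for the pathway. The median log2 change of the 25 targets at 6 h was 1.21 in WT and 0.58 in Aim2-/- cells, and that of the members -0.33 and -0.48. Among the targets, Il2, the T cell growth factor, was at 5.37 in WT and 4.28 in Aim2-/- cells at 6 h, and the chemokine gene Ccl3 at 8.81 and 6.32. Between genotypes at 0 h, 6 targets were higher and 0 lower in Aim2-/- cells (3.24% and 1.99% of all genes), namely Ccl3 (2.91), Ier3 (1.49), Tnfrsf9 (1.10), Ebi3 (1.01), Tnfrsf4 (0.78) and Bcl2l1 (0.69). At 6 h, 4 were higher and 6 lower (8.78% and 7.01% of all genes). The higher were Ier3 (1.12), Ebi3 (1.09), Tnfrsf4 (0.62) and Traf1 (0.32), and the lower Tnf (-0.63), Il2ra (-0.50), Cd40lg (-0.99), Irf4 (-0.80), Ccnd2 (-0.76) and Myc (-0.59). For none of the 25 did the response differ between genotypes at 3, 6 or 24 h by edgeR's test. At 0 h the myeloid marker sum was 33.1 to 58.7 CPM in WT and 105 to 377 CPM in Aim2-/- libraries. The NK cell sum was 65.7 to 79.1 and 132 to 155 CPM, and the basophil and mast cell sum 7.20 to 9.97 and 53.3 to 102 CPM. The B cell sums were apart as well, and the CD4+, CD8 and erythroid sums overlapped. The part of other cell types in the target differences was not tested.

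**Figure D5:**
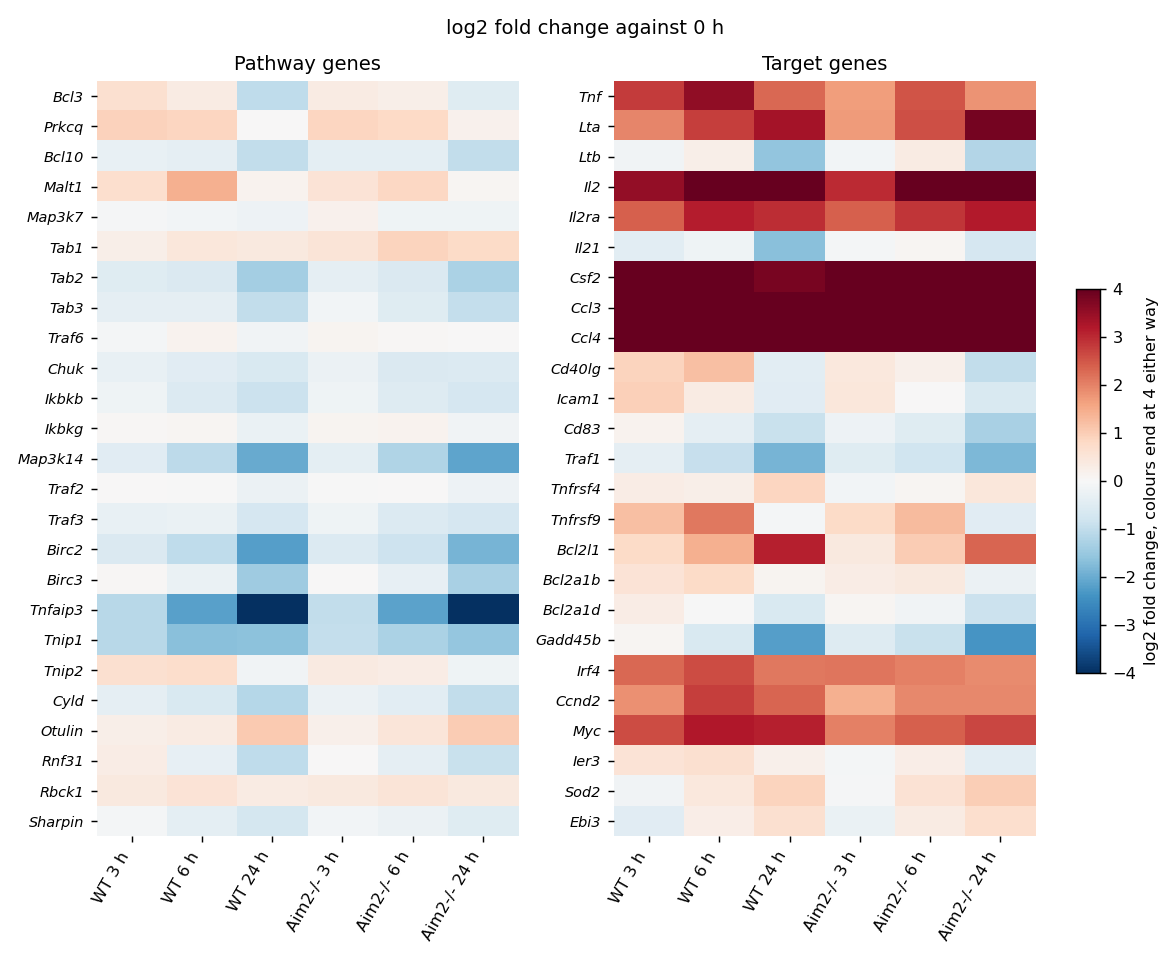
Log2 fold change against 0 h (colour scale, ending at 4 in either direction) of 25 pathway genes (left) and 25 target genes (right) in WT and Aim2-/- cells at 3, 6 and 24 h. Tnfaip3 is darkest blue at 24 h (-4.67 in WT), and Csf2, Ccl3, Ccl4 and Il2 are red at all times.

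Across the 24 libraries, log2 levels of the members other than Nfkbib ran together in part, a description over libraries that share mice and times. Pearson's r was highest between Rela and Relb (0.966) and between Nfkbia and Nfkbiz (0.962), was lowest among these 9 between Nfkb1 and Nfkbie (0.487), and lay between -0.386 and -0.002 for Nfkbib with each of the others. Among 8707 genes at a mean of at least 10 CPM, those of highest r with each member were Ptprc (0.964) and Pdlim5 (0.945) for Nfkb1, Sik1 (0.961) and Arhgef10 (0.958) for Nfkb2, Slc41a1 (0.982) and Hivep2 (0.980) for Rel, Itpkc (0.990) and Zswim4 (0.989) for Rela, and Per1 (0.984) and Sidt2 (0.984) for Relb. For the inhibitors they were Ramp3 (0.988) and H2-D1 (0.986) for Nfkbia, Phc2 (0.853) and Bag5 (0.837) for Nfkbib, Cbarp (0.954) and Bhlhe40 (0.952) for Nfkbie, Rabggta (0.935) and Nr4a2 (0.929) for Nfkbid, and Atp9b (0.981), in the second place, for Nfkbiz.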

How the data were processed

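Poly(A) RNA of 24 libraries from splenic CD4+ T cells was sequenced from stranded TruSeq libraries. Per the labels and the study's methods, the authors aligned reads with STAR to GRCm38 and deposited one table of raw read counts per gene, without normalization; DESeq2 and edgeR are also named in the submitters' processing notes. The strand setting of the counting was not given in the sources used here. Totals were 19715161 to 21627018 counts per library, so that the floor of 3 counts corresponded to 0.129 to 0.155 CPM; PCR duplicates were not removed by molecular identifiers, and this floor covers counting error only. All 24 columns were used.

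The 54446 gene identifiers were matched to GENCODE M21 (GRCm38), with 54409 found. Genes were filtered with filterByExpr (minimum count 10), which kept 15325, scaled by TMM and fitted with edgeR 4.0.16 (quasi-likelihood F test, two-sided, R 4.3.3) over all 24 libraries and 8 groups. P-values were adjusted by Benjamini-Hochberg over all genes in each of 17 comparisons, with a threshold of 0.05. CPM are TMM-scaled; log2 CPM used a prior count of 2. Levels per length (TPM) used the merged exons of each gene. Subunit shares were compared within mice by the exact sign-flip permutation test over 6 mice (18 tests, adjusted together, smallest possible p 0.03125). The edgeR step was tested on simulated counts.

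Libraries of one mouse are paired by the labels. Deviations from the group means correlated at r = 0.139 to 0.567 in 36 same-mouse pairs and at -0.432 to 0.0742 in 72 pairs of different mice of a genotype at different times. The main model had no mouse term; mouse as a replicate block was an alternative. Other alternatives were DESeq2 1.42.0, limma-voom 3.58.1, other scalings and filters, fits on the libraries compared, marker scores as terms, and leaving out each library and each mouse. An offset per library fitted on GC content and transcript length (natural splines, 4 degrees of freedom each) was chosen after seeing the data. The members and the pathway, target and marker lists were chosen with earlier results of these data known. All members were named; for each, the 2 genes with the highest Pearson r of log2 CPM over the 24 libraries were named among 8707 genes at a mean of 10 CPM or more, leaving out clone names. Of these and of the pathway and marker genes, some are not reported here. Promoter sequences came from RefSeq (GRCm38.p6).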

Additional observations from a re-analysis of the deposited data

Results flagged for a closer look

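In the fit with mouse as a replicate block, the change from 0 to 6 h differed between the genotypes for Rel (log2 difference -0.54, adjusted p = 0.0279, edgeR) and for Nfkb1 (-0.51, adjusted p = 0.0323). From 0 to 6 h the level of Rel was lower in 6 of 6 mice, and that of Nfkb1 was higher in 4 and lower in 2. For WT 1, WT 3 and WT 4 the log2 change of Nfkb1 was 0.51, 0.27 and 0.21. For Aim2-/- 1, 2 and 4 it was -0.46, 0.005 and -0.05. The change of Rel was -0.38, -0.27 and -0.36, then -1.12, -0.72 and -0.78, with the mice in the same order. The main fit, without the block, called 0 members for this difference. The same held when WT 1 or Aim2-/- 1 was left out of that fit. The ratio of summed inhibitor to subunit TPM changed from 0 to 3 h by 0.0361 on average in WT mice (SD 0.0135, n = 3) and by -0.101 in Aim2-/- mice (SD 0.0833, n = 3), with every mouse of a genotype in the same direction and the genotypes in opposite ones. It was the 1 such case among 18 combinations of a share or ratio and a time, and the difference was not tested. The opposite directions held over merged exons only. Over the longest transcript and in CPM the ratio was lower at 3 h in 6 of 6 mice. Of 64 sets of 6 mice (levels and shares of the members at each time), 3 had 1 value apart from the others, where chance alone flags about 1 set in 20. The share of Rel was 8.89% of subunit TPM in the mouse labelled WT 1 at 24 h and 7.01% to 7.70% in the others. The level of Rela was 453 TPM in WT 4 at 0 h and 413 to 423 TPM in the others. The level of Nfkbie was 153 TPM in Aim2-/- 1 at 0 h and 105 to 120 TPM in the others.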

How the results depend on the processing

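Of the 67 member changes called in the 17 comparisons, no alternative reversed a direction; of their 2680 alternative values 2565 kept their side of the threshold and 115 lost it, the cause of which was not tested. The number of members called at 3 h in Aim2-/- cells was 1 with no filter on low counts and 5 with mouse as a replicate block. From 3 to 6 h in Aim2-/- cells it was 7 with DESeq2, 2 in the fit on the libraries compared, and 7 with the GC and length correction, with or without the block. At 3 h in WT cells it was 4 with the block and that correction. Between genotypes at 0 h DESeq2 called 1, and at 6 h 1 was called in the fit on the libraries compared, with marker scores, and with the GC and length correction (Rel each time). For the response at 6 h the count was 1 with DESeq2, 2 with the block in the paired fit, 2 with marker scores and 3 with the block and the correction. Where not given above, the shares of all genes called under these alternatives are not reported here.

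Leaving out 1 library or mouse at a time gave 0 to 3 members at 3 h and 1 to 4 from 3 to 6 h in WT cells, 2 to 6 from 3 to 6 h in Aim2-/- cells, and 0 to 2, 1 to 3 and 0 to 3 between genotypes at 0, 6 and 24 h; the 3 at 24 h (Nfkb1, Nfkbia and Nfkbiz) came without Aim2-/- 2, and without WT 3 or WT 4 none passed in WT cells at 3 h. At 0 h, Nfkbia and Nfkbie passed without Aim2-/- 2. Over the longest transcript the share of Rel at 3 h changed by -1.38 percentage points, that of Relb at 6 h by -2.57, and the inhibitor to subunit ratio at 3 h by -0.0861, each now past the threshold; with CPM the share of Rel at 3 h changed by -2.63 and the ratio by -0.0338. The labels do not say that cultures were replicated within a mouse. In the main fit the spread was estimated over 24 libraries in 8 groups, and the 4 libraries of a mouse were treated as independent. The sign-flip p-values rest on within-mouse differences of 6 mice, both genotypes together.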
